A study of Mus musculus with 4 samples.

Results

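The genes of MHC class II antigen presentation were 7 of the 16015 genes in the deposited expression table, named by their role in this pathway and found by gene symbol: *H2-Aa*, *H2-Ab1* and *H2-Eb1*, *Cd74*, *H2-DMa* and *H2-DMb1*, and *Ciita*. Bulk RNA sequencing had been done on colonic epithelial cells of C57BL/6 mice aged 2 to 4 months, with 2 libraries from control mice (labelled WT, and described in the study's methods as *Bmal1* fl/fl) and 2 from *Bmal1* cKO mice (*Villin-CreERT2; Bmal1* fl/fl). Tamoxifen, given on 5 days, activates the Cre recombinase that the *Villin* promoter drives in intestinal epithelium, so the leukocytes of a *Bmal1* cKO mouse keep *Bmal1*. The methods say that mice came from the same litter, and describe the tamoxifen treatment for mice in general, without naming the control mice. Mice of both genotypes drank 3% dextran sodium sulfate (DSS), which damages the colonic epithelium, for 5 days, followed by 2 days on water, and the epithelium was collected on day 7 by EDTA treatment, scraping and straining, with no sort for epithelial cells. The question for these genes was whether class II transcripts differed between inflamed control and *Bmal1* cKO epithelium.

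MHC class II molecules carry peptides from the endosomes and lysosomes to the cell surface, where CD4+ T cells read them. A class II molecule is a pair of an alpha and a beta chain that is assembled in the endoplasmic reticulum on the invariant chain CD74, which blocks the groove until proteases cut it down and the H2-DM pair exchanges its last fragment for a peptide. B cells, dendritic cells and macrophages make class II all the time, and intestinal epithelial cells make it when interferon gamma induces the transactivator CIITA, so colonic tissue has both leukocyte and epithelial sources. CIITA does not bind DNA itself. It is recruited by factors seated on the X and Y boxes just upstream of class II genes, where RFX proteins hold the X box and NF-Y the Y box.

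Promoter sequences are shown first because these boxes are what class II genes share in their DNA. In the 200 bases before the RefSeq start (GRCm38.p6), searched on both strands, the Y box core ATTGG was found in 29.3% of 32817 promoters and the X box core AGNNACNG in 36.6%. An X core followed by a Y core 20 to 32 bases later on one strand was found in 0.472% of them. *H2-Eb1* and *H2-DMb1* had this arrangement, with 25 and 26 bases between the cores. *H2-Aa* had a Y core at -48 with no X core of these letters in the window, and neither of the 2 RefSeq starts of *H2-DMa* had the pair. In the sequences, each is written along its gene's strand, and capitals mark the cores on that strand (a further Y core of *H2-Eb1*, on the opposite strand, is in lower case), for *H2-Eb1* at chr17:34305667-34305866 (plus strand, X core at -92 and Y core at -59), for *H2-Aa* at chr17:34287824-34288023 (minus strand), and for *H2-DMb1* as the 30 bases around each core, at chr17:34153085-34153114 and chr17:34153119-34153148 (plus strand, cores at -95 and -61).
H2-Eb1 promoter: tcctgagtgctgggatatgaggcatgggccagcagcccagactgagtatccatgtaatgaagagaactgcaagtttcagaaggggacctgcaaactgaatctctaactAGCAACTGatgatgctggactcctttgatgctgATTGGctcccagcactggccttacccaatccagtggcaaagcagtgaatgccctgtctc
H2-Aa promoter: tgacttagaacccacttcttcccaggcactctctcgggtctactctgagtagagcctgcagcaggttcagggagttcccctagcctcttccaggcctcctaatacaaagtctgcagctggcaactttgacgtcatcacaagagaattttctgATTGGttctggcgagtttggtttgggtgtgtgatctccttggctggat
H2-DMb1 X core: gaggtttacctAGTAACTGatgatgctagg
H2-DMb1 Y core: ttcactcagtgATTGGtctgacctgcctac
The gene span given below for *H2-DMb1* starts at chr17:34153072, so its cores lie before the RefSeq start but inside that span. The promoters of *H2-Ab1* and *Ciita* were not analysed here. A match to such short letters is a description of the sequence and not evidence of binding.

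Values are the authors' normalized counts, which are read counts divided by a factor for each library. The 4 libraries held 10312791 to 14156639 reads on the listed genes, and the 13983 genes whose mean over the libraries reached 10 normalized counts were tested with limma on log2(value + 1), two-sided, with Benjamini-Hochberg adjustment over all of them. *Arntl*, the gene that encodes BMAL1, was at 358 and 342 normalized counts in control libraries 1 and 2, against 341 and 289 for *Bmal1* cKO (log2 fold change -0.16, SE 0.14, adjusted p = 0.389). A count over the whole gene does not resolve the floxed exon, so these values do not check the deletion. Across genes the log2 fold change followed the GC content of the transcript (Spearman rho -0.62 over 13975 genes, which are not independent replicates), so each member is also given after a correction for GC content and transcript length. *Arntl* was at -0.50 after this correction and passed (limma, adjusted p = 0.0488), which it did in no other alternative that kept all libraries. The control mice stood apart from each other more than the *Bmal1* cKO mice did, with a chi-square of their reads of 44.9 per gene against 12.0. All 16 epithelial markers were read in every library, and so were all 8 general leukocyte markers, so the libraries labelled as epithelium also held leukocyte transcripts.

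Most class II transcripts were lower in the *Bmal1* cKO epithelium. Of the 7 genes, 5 fell (adjusted p under 0.05) and the other 2 did not pass, where 27.7% of all tested genes fell and 29.0% rose. In 6 of 7 both *Bmal1* cKO libraries lay below both control libraries, an arrangement that 41.7% of all tested genes shared. The median log2 fold change of the 7 was -2.36, against -0.04 over all tested genes. After the GC and length correction 3 of 7 fell (*H2-Aa*, *Cd74* and *H2-DMb1*), where 17.3% of tested genes did, and the median was -1.89. In a bulk sample, fewer cells that make class II and less class II RNA per cell cannot be told apart.

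**Figure D1:**
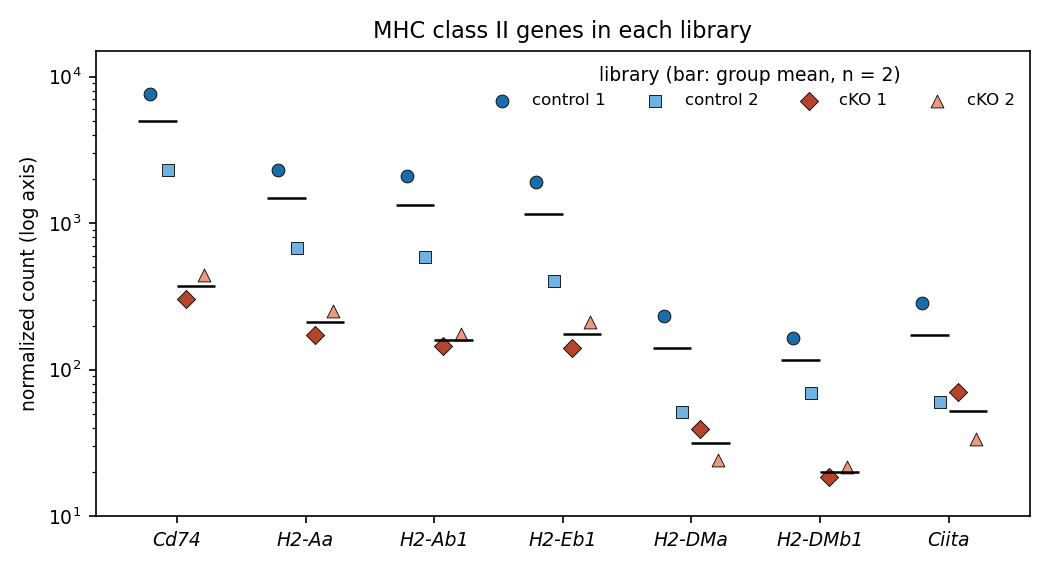
Normalized counts of the 7 class II genes in each of the 4 libraries, on a log axis. Points are single mice (2 control and 2 *Bmal1* cKO) and bars are the group means. In each gene control mouse 1 is the highest library, and only in *Ciita* does a *Bmal1* cKO mouse (69.9) lie above a control mouse (60.1).

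The classical chains fell together. *H2-Aa*, the alpha chain of the I-A molecule (chr17:34282744-34287823 of GRCm38, minus strand), had 2312 and 675 normalized counts in control mice 1 and 2 and 173 and 250 in *Bmal1* cKO mice 1 and 2. The groups did not overlap, but control mouse 1 had 3.43 times the level of control mouse 2. The group means were 1494 ± 1158 and 211 ± 54.6 (SD, n = 2 mice each), 7.06-fold lower in *Bmal1* cKO mice, and the log2 fold change from limma was -2.58 (SE 0.57, adjusted p = 0.0134). It stayed past the threshold after the GC and length correction, at -2.47 (limma, adjusted p = 0.0265).

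*H2-Ab1*, the beta chain that pairs with it (chr17:34257689-34269419, plus strand), was at 2086 and 584 normalized counts in control libraries 1 and 2, against 144 and 176 for *Bmal1* cKO. Its mean was 8.35-fold lower (1335 ± 1062 against 160 ± 22.4, SD, n = 2), with a log2 fold change of -2.79 (SE 0.58, limma, adjusted p = 0.0105). The transcript is the most GC-rich of the 7, at 57.3% GC, and the corrected log2 fold change was -1.85 (limma, adjusted p = 0.0568), so the call was lost. The ratio of *H2-Ab1* to *H2-Aa* was 0.902, 0.864, 0.833 and 0.703 in control mice 1 and 2 and *Bmal1* cKO mice 1 and 2. In uncorrected counts the pair thus kept nearly the same proportion in mice that differed widely in both chains. After the correction their log2 fold changes lay further apart, at -1.85 for *H2-Ab1* and -2.47 for *H2-Aa*.

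*H2-Eb1*, the beta chain of the I-E molecule (chr17:34305867-34316674, plus strand), is transcribed in C57BL/6 mice although their alpha-chain partner gene is a pseudogene. It was at 1913 and 402 normalized counts in control libraries 1 and 2, against 140 and 212 for *Bmal1* cKO. The control mice differed 4.75-fold for this gene, which was more than for the other classical chains. Its mean was 6.57-fold lower (1158 ± 1068 against 176 ± 51.1, SD, n = 2), with a log2 fold change of -2.34 (SE 0.72, limma, adjusted p = 0.0374). Without control mouse 1 it was -1.22 (limma, adjusted p = 0.0672), and after the correction -2.16 (limma, adjusted p = 0.0681).

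*Cd74*, the invariant chain (chr18:60803848-60812652, plus strand), showed the lowest log2 fold change of the 7. It was at 7602 and 2296 normalized counts in control libraries 1 and 2, against 302 and 445 for *Bmal1* cKO, so both *Bmal1* cKO libraries lay far below the lower control library. Its mean was 13.2-fold lower (4949 ± 3751 against 374 ± 101, SD, n = 2), with a log2 fold change of -3.51 (SE 0.56, limma, adjusted p = 0.00431). The corrected value was -2.70 (limma, adjusted p = 0.0196). *Cd74* took 52.1% and 55.5% of the summed normalized counts of the 7 genes in the control mice but 34.1% and 38.3% in the *Bmal1* cKO mice. The ratio of *Cd74* to *H2-Aa* was 3.29 and 3.40 for control, against 1.75 and 1.78 for *Bmal1* cKO. This ratio hardly differed within a genotype, although the control mice differed 3.31-fold in *Cd74* and 3.43-fold in *H2-Aa*. The shares and the ratio are of uncorrected counts, and *Cd74* is richer in GC (56.6%) than *H2-Aa* (51.0%). After the correction the log2 fold changes of *Cd74* and *H2-Aa* were -2.70 and -2.47, nearer to each other than the uncorrected -3.51 and -2.58.

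The editor H2-DM, whose alpha and beta chains swap the invariant-chain fragment for peptide, was read at much lower levels. *H2-DMb1* (chr17:34153072-34160230, plus strand) was at 164 and 69.5 normalized counts in control libraries 1 and 2, against 18.5 and 21.6 for *Bmal1* cKO. Its mean was 5.81-fold lower (117 ± 66.8 against 20.1 ± 2.2, SD, n = 2), with a log2 fold change of -2.36 (SE 0.49, limma, adjusted p = 0.0108) and -1.89 after the correction (limma, adjusted p = 0.0356). These values are uncertain, because its transcript matches that of the neighbouring gene *H2-DMb2* at 94.6% of 1219 aligned bases and reads could have been split between them. *H2-DMa* (chr17:34119541-34139101, plus strand) was at 231 and 51.7 normalized counts in control libraries 1 and 2, against 39.1 and 24.3 for *Bmal1* cKO. The groups did not overlap, but control mouse 2 lay nearer to the *Bmal1* cKO mice than to control mouse 1, and the log2 fold change of -1.80 did not pass (SE 0.74, limma, adjusted p = 0.0865), nor did the corrected value of -1.20 (limma, adjusted p = 0.248). *H2-DMa* overlaps *Brd2* on the opposite strand, and whether the counting used strand was not given in the sources used here.

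*Ciita*, the transactivator of all these genes (chr16:10480059-10528418, plus strand), was the member whose groups overlapped. It was at 285 and 60.1 normalized counts in control libraries 1 and 2, against 69.9 and 33.8 for *Bmal1* cKO, so *Bmal1* cKO mouse 1 lay above control mouse 2. The log2 fold change was -1.41 (SE 0.78, limma, adjusted p = 0.173), and -0.87 after the correction (limma, adjusted p = 0.414). It was -0.30 without control mouse 1 (limma, adjusted p = 0.707) and -2.52 without control mouse 2 (limma, adjusted p = 0.0431). Relative to *Cd74*, *Ciita* was 0.0375 and 0.0262 for control, against 0.231 and 0.0760 for *Bmal1* cKO. *Ciita* overlaps *Dexi* on the opposite strand.

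Per kilobase of transcript, the order of the mean levels in the control mice was *Cd74* (3510 normalized counts per kb), *H2-Aa* (1324), *H2-Ab1* (1101), *H2-Eb1* (694), *H2-DMb1* (83.1), *H2-DMa* (70.6) and *Ciita* (28.7). In the *Bmal1* cKO mice the means per kb were 265, 187, 132, 105, 14.3, 15.8 and 8.63 in that order, so the 4 genes at the top kept their places. Each of the 4 libraries held this order, except that *H2-DMa* lay above *H2-DMb1* in *Bmal1* cKO mouse 1. The control ranges of neighbouring genes overlapped at each step but the one from *H2-Eb1* (241 to 1146) to *H2-DMb1* (49.5 to 117). *Cd74* lay above *H2-Aa*, *H2-Aa* above *H2-Ab1* and *H2-Ab1* above *H2-Eb1* within every mouse, so these overlaps reflect differences between mice.

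How far the class II genes fell rested on control mouse 1. The 7 genes were 2.36-fold (*H2-DMb1*) to 4.75-fold (*H2-Eb1*) higher in control mouse 1 than in control mouse 2, whereas 8.68% of all tested genes were at least 2-fold and 5.47% at least 3-fold higher there. Their median ratio was 3.57, and lists of leukocyte markers shared this excess. The medians were 2.70 for macrophage and monocyte, 3.14 for dendritic cell and 3.81 for T cell and innate lymphoid markers. For B cell markers the median was 8.88, and for general leukocyte markers 1.32. The summed normalized counts of the 7 genes were 14593 and 4139 for control, against 887 and 1162 for *Bmal1* cKO. Without control mouse 1, limma gave log2 fold changes of -1.69 for *H2-Aa*, -1.87 for *H2-Ab1* and -2.64 for *Cd74*, and these 3 remained below the threshold (adjusted p = 0.0296, 0.0173 and 0.0154). *H2-DMb1* was then at -1.75 (adjusted p = 0.0501) and *H2-DMa* at -0.72 (adjusted p = 0.306). Without control mouse 2, all 7 passed. Without *Bmal1* cKO mouse 1, 0 of 7 passed in limma, with 2 at an unadjusted p under 0.05. Without *Bmal1* cKO mouse 2, *Cd74* alone passed (adjusted p = 0.0469), with 4 at an unadjusted p under 0.05. The log2 fold changes of all 7 stayed negative in each case. A fit without 1 library assumes that the lone mouse of a group varies like the pair of the other. The shares of tested genes that fell or rose are from fits with all libraries, so they are no background for these counts.

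**Figure D2:**
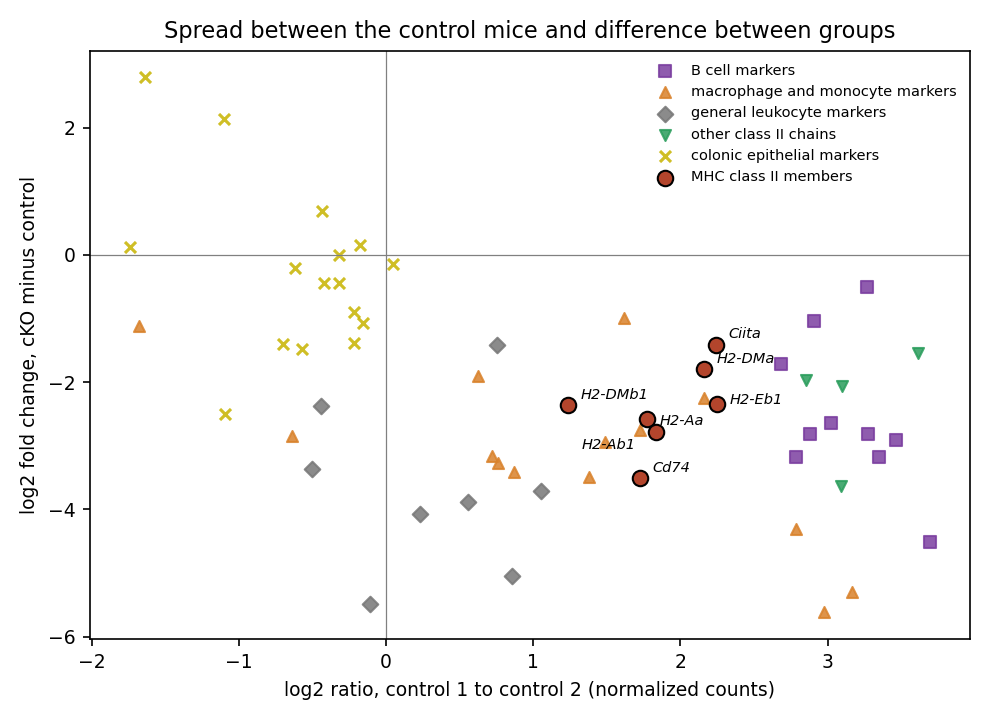
Log2 fold change (*Bmal1* cKO minus control, vertical axis) against the log2 ratio of control mouse 1 to control mouse 2 (horizontal axis), 1 point a gene, for the class II genes and marker lists. Before taking the log, the 7 class II genes have ratios of 2.36 to 4.75, while the B cell markers lie higher, with a median of 8.88, and the general leukocyte markers lower, with a median of 1.32. The macrophage and monocyte markers have a median of 2.70, within the range of the class II genes.

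The remaining class II chains of the locus were also higher in control mouse 1 than in control mouse 2, and none of the 4 passed the test. *H2-Ob*, a chain of the H2-O pair that restrains H2-DM in B cells, was at 519 and 42.4 normalized counts in control libraries 1 and 2, against 25.7 and 98.7 for *Bmal1* cKO. Its log2 fold change of -1.54 did not pass (SE 1.25, limma, adjusted p = 0.330) and was 0.25 without control mouse 1 (limma, adjusted p = 0.845). *H2-DMb2* (-2.06, limma, adjusted p = 0.146) and *H2-Eb2* (-1.97, limma, adjusted p = 0.218) did not pass either. *H2-Oa*, the alpha chain of H2-O, was at 65.1 and 7.62 normalized counts in control libraries 1 and 2, against 0 and 2.70 for *Bmal1* cKO, the latter from 0 and 2 reads (limma, adjusted p = 0.0636). The median ratio of control mouse 1 to control mouse 2 over these 4 genes was 8.55, and *H2-Ea-ps* was not analysed here. Their median log2 fold change was -2.02, but -0.55 without control mouse 1 and -3.48 without control mouse 2.

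Of the 7 factors that seat CIITA on the promoters, 2 rose and the other 5 did not pass, a share near the 29.0% of all tested genes that rose, with a median log2 fold change of 0.14. The RFX subunits had log2 fold changes of -0.17 (*Rfx5*), 0.04 (*Rfxap*) and 0.14 (*Rfxank*), and their adjusted p ran from 0.559 to 0.868. *Nfyb*, a subunit of NF-Y, rose from 468 and 466 normalized counts to 922 and 935 (log2 fold change 0.99, limma, adjusted p = 0.00101), and *Creb1*, which binds the X2 box, from 895 and 673 to 2330 and 2484 (1.63, limma, adjusted p = 0.000896). Both transcripts are poor in GC (40.9% and 39.6%), and after the correction neither passed, with *Nfyb* at -0.04 (limma, adjusted p = 0.774) and *Creb1* at 0.46 (limma, adjusted p = 0.0619).

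The interferon gamma pathway, which induces *Ciita* in epithelial cells, had shares of higher and lower genes near those of all tested genes. Of the 7 genes of its list that were tested, 2 rose and 2 fell, against 29.0% and 27.7% of all tested genes. *Ifngr1*, the ligand-binding receptor chain, rose by 0.83 on the log2 scale (limma, adjusted p = 0.00135) and *Jak2*, a kinase bound to the receptor, by 0.69 (limma, adjusted p = 0.00648), though *Jak2* was at -0.02 after the correction (limma, adjusted p = 0.885) and did not pass without *Bmal1* cKO mouse 1 (limma, adjusted p = 0.0637) or 2 (limma, adjusted p = 0.0508). Without either of these mice 1 gene of the list rose and 1 fell. *Socs3*, an inhibitor of JAK kinases, fell from 2039 and 1501 to 219 and 283 (log2 fold change -2.81, limma, adjusted p = 0.000542, and -1.73 after the correction). *Ifngr2*, the other receptor chain, was at -0.40 (limma, adjusted p = 0.0147), a call lost without control mouse 2 or either *Bmal1* cKO mouse. *Jak1*, the other receptor kinase, was at 0.19 (limma, adjusted p = 0.179) and *Socs1*, an inhibitor like *Socs3*, at -0.98 (limma, adjusted p = 0.225). *Socs1* stood at -1.85 without control mouse 2 (limma, adjusted p = 0.0451) and at -0.12 without control mouse 1 (limma, adjusted p = 0.849). *Irf1*, which acts on the *Ciita* promoter, was at 0.28 and did not pass (limma, adjusted p = 0.121), but rose after the correction (0.58, limma, adjusted p = 0.0254). *Ifng* itself gave 2 and 0 reads in control libraries, and 11 and 4 for *Bmal1* cKO, too few to be tested.

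Other genes that interferon gamma induces were not lower. Of 12, 5 rose, where 29.0% of all tested genes did, and the other 7 did not pass. All 12 log2 fold changes were above 0, with a median of 1.43, and after the correction 7 of 12 rose, where 17.2% of tested genes did. *Iigp1*, an immunity-related GTPase, was at 106 and 15.2 normalized counts in control libraries 1 and 2, against 2223 and 861 for *Bmal1* cKO (log2 fold change 5.05, SE 0.94, limma, adjusted p = 0.00731). *Cxcl9*, a chemokine for T cells, was at 11.0 and 5.93 for control, against 204 and 114 for *Bmal1* cKO (4.07, limma, adjusted p = 0.00182). *Igtp* and *Irgm1*, also GTPases, rose by 3.34 and 2.32, and *Gbp2* by 2.36. Without *Bmal1* cKO mouse 1 the median was 0.80 and 3 rose, and without *Bmal1* cKO mouse 2 it was 2.2. *Gbp2* did not pass without control mouse 1 (limma, adjusted p = 0.0972) or control mouse 2 (limma, adjusted p = 0.0915), nor did *Igtp* without *Bmal1* cKO mouse 1 (limma, adjusted p = 0.0520) or *Iigp1* without *Bmal1* cKO mouse 1 (limma, adjusted p = 0.0836) or 2 (limma, adjusted p = 0.0510). *Nlrc5*, the transactivator of class I genes and a relative of *Ciita*, was at 218 and 84.7 normalized counts in control libraries 1 and 2, against 534 and 265 for *Bmal1* cKO (1.46, limma, adjusted p = 0.0626).

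The proteases and the reductase that cut the invariant chain and prepare antigen fell in part. Of 9 lysosomal genes, 5 fell and 1 rose, against 27.7% and 29.0% of all tested genes, with a median of -0.64. After the correction 3 of 9 fell, against 17.3%. *Ctss*, the cathepsin that makes the last cuts in CD74 in leukocytes, was at 2564 and 2579 normalized counts in control libraries 1 and 2, against 1423 and 1804 for *Bmal1* cKO (log2 fold change -0.68, SE 0.13, limma, adjusted p = 0.00869). *Lgmn*, an asparaginyl endopeptidase, was at 1980 and 792 for control, against 371 and 360 for *Bmal1* cKO (-1.77, limma, adjusted p = 0.0157), a call lost without *Bmal1* cKO mouse 1 (limma, adjusted p = 0.112) or 2 (limma, adjusted p = 0.118). *Ctsz* was at -1.20, *Ctsd* at -0.64 and *Ifi30*, the thiol reductase, at -0.43, while *Ctsl*, which cuts CD74 in thymic epithelium, was at 0.01 (limma, adjusted p = 0.950). *Sppl2a*, the intramembrane protease that clears the CD74 stub, rose from 5646 and 5356 to 22142 and 20785 (1.96, limma, adjusted p = 0.000533, and 0.78 after the correction). After the correction *Ctsz* (-0.30), *Ctsd* (0.04) and *Ifi30* (0.03) no longer passed (limma, adjusted p = 0.213, 0.711 and 0.869), and *Ctsl* did, at -0.71 (limma, adjusted p = 0.0286). Without control mouse 1, *Ctss* did not pass (limma, adjusted p = 0.0642), nor did it without control mouse 2. *Ifi30* passed in none of the 4 fits that left out a mouse (limma, adjusted p from 0.0636 to 0.182). The number of the 9 genes that fell was 4 without control mouse 2 and 3 without any other mouse.

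Genes around class II at the cell surface followed no single direction. *March1*, a ubiquitin ligase that removes class II from the surface of dendritic and B cells, was at 188 and 50.8 normalized counts in control libraries 1 and 2, against 9.26 and 27.0 for *Bmal1* cKO (log2 fold change -2.55, limma, adjusted p = 0.0397). The call was lost without control mouse 1 (limma, adjusted p = 0.191) and without *Bmal1* cKO mouse 1 (limma, adjusted p = 0.215) or 2 (limma, adjusted p = 0.0827). *March8*, its relative with wider expression, rose from 1031 and 1227 to 1871 and 2201 (0.85, limma, adjusted p = 0.00419). Of 5 costimulation genes 2 fell, *Cd86* (-1.92, limma, adjusted p = 0.0120) and *Icosl* (-1.19, limma, adjusted p = 0.0323), neither of which passed without control mouse 1 (limma, adjusted p = 0.0577 and 0.11) or without either *Bmal1* cKO mouse. A share of 2 in 5 stands against 27.7% of all tested genes, or 17.3% after the correction, when *Icosl* did not pass (-0.96, limma, adjusted p = 0.0870) and *Cd80* did (-2.14, limma, adjusted p = 0.020, against -1.29 and 0.0530 before it). *Cd40* was at 81.1 and 9.32 normalized counts in control libraries 1 and 2, against 10.3 and 1.35 for *Bmal1* cKO (limma, adjusted p = 0.149). *Mif*, a cytokine that binds CD74 at the surface, fell from 1696 and 1739 to 202 and 164 (-3.23, limma, adjusted p = 0.000533). Its transcript is rich in GC (59.7%), and after the correction its log2 fold change was -1.80.

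**Figure D3:**
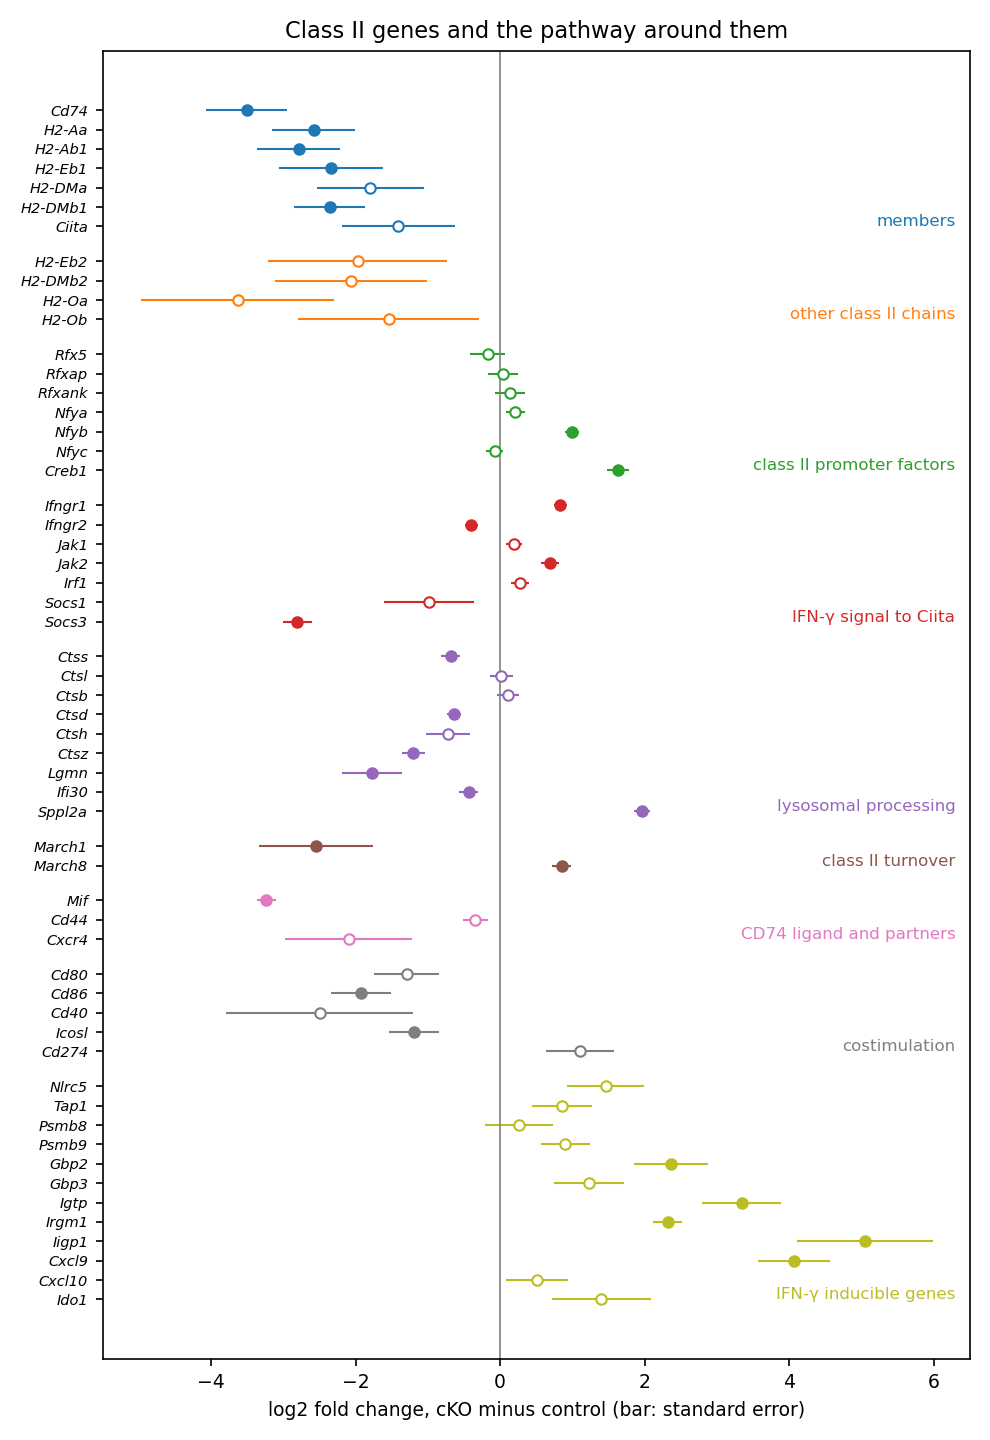
Log2 fold change (*Bmal1* cKO minus control, limma, bars are SE) of the 7 class II genes and of the tested genes of the pathway lists. Filled points had an adjusted p under 0.05 and open points did not. All 7 class II genes lie below 0, between -3.51 and -1.41, the RFX subunits lie near 0, and the interferon gamma inducible genes lie above 0, up to 5.05.

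General leukocyte and macrophage markers fell in the same comparison, where 27.7% of all tested genes fell, and their part in the class II result was not tested. All 8 general leukocyte markers fell (median log2 fold change -3.80), and their summed normalized counts were 5545 and 4251 for control, against 612 and 784 for *Bmal1* cKO. Of 14 macrophage and monocyte markers 11 fell (median -3.05), with sums of 10088 and 8830 against 2135 and 2128. *Cd14* weighs on these sums, at 1636 and 5241 normalized counts for control, against 1479 and 1237 for *Bmal1* cKO. The median ratio of control mouse 1 to control mouse 2 over the 14 markers was 2.70. The defining macrophage gene *Adgre1* was at 139 and 53.4 normalized counts in control libraries 1 and 2, against 4.11 and 10.8 for *Bmal1* cKO. *C1qa*, a complement gene of resident macrophages, was at 594 and 75.4 for control, against 4.11 and 2.70 for *Bmal1* cKO. Without control mouse 1, all 8 general leukocyte markers and 8 of the 14 macrophage and monocyte markers fell, with medians of -3.61 and -2.81. Without *Bmal1* cKO mouse 1 these counts were 7 and 4, and without *Bmal1* cKO mouse 2 they were 7 and 7.

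Of 10 B cell markers 2 fell, *Cd79a* and *Blk*, a share below the 27.7% of all tested genes, with a median of -2.81 and sums of 3520 and 396 for control, against 152 and 476 for *Bmal1* cKO. B cell transcripts were thus highest in control mouse 1, and *Ms4a1*, which encodes CD20, had 388, 51.7, 43.2 and 108 normalized counts in control mice 1 and 2 and *Bmal1* cKO mice 1 and 2. Of the dendritic cell markers 5 could be tested and 2 fell, *Itgax* and *Flt3*. *Flt3*, *Zbtb46*, *Batf3* and *Clec10a* were at 0 in a *Bmal1* cKO library, and the sums of 1678 and 1075 against 1028 and 875 came mostly from *Irf8*, at 846 to 1210 normalized counts in every library. *Xcr1* and *Cd209a* were not analysed here. Without control mouse 1, the median of the B cell markers was -1.19 and that of the dendritic cell markers -1.91, while *Ms4a1* stood at 0.40 (limma, adjusted p = 0.667). By limma, 1 of the 10 B cell markers fell without control mouse 1, 7 without control mouse 2 and 0 without either *Bmal1* cKO mouse (0 also at an unadjusted p under 0.05). Of the 5 dendritic cell markers, 0 fell without control mouse 1 or without *Bmal1* cKO mouse 2 (1 at an unadjusted p under 0.05 each time), 2 without control mouse 2 and 1 without *Bmal1* cKO mouse 1. After the GC and length correction *Cd79a*, *Blk* and *Flt3* did not pass (limma, adjusted p = 0.0525, 0.0823 and 0.0636). Of 9 T cell and innate lymphoid markers tested 6 fell, but 1 without control mouse 1, 0 without *Bmal1* cKO mouse 1 (2 at an unadjusted p under 0.05) and 1 without *Bmal1* cKO mouse 2, and 4 after the correction. *Epcam*, an epithelial surface marker, was at 17455 and 21771 for control, against 18588 and 20320 for *Bmal1* cKO, and of 16 epithelial markers 6 fell and 3 rose, against 27.7% and 29.0% of all tested genes, with a median of -0.32. After the correction 4 of the epithelial markers fell and 5 rose, with a median of 0.09, and without either *Bmal1* cKO mouse 4 fell and 0 rose by limma (2 at an unadjusted p under 0.05 each time).

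**Figure D4:**
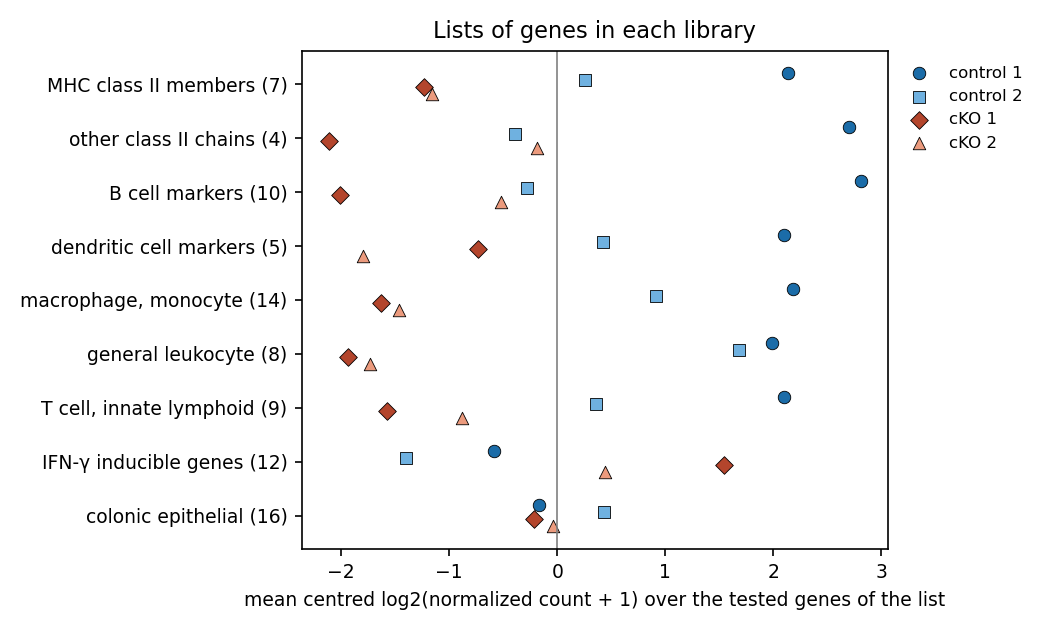
Mean over the tested genes of each list (number in brackets) of log2(normalized count + 1), each gene centred on its own mean over the 4 libraries. Each point is a library. The class II genes, the B cell markers and the leukocyte markers are all highest in control mouse 1, and the class II genes in control mouse 2 lie between control mouse 1 and the *Bmal1* cKO mice.

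Set against leukocyte genes within each library, in counts not corrected for GC, the class II genes were lower, overlapping or higher in the *Bmal1* cKO mice. Which of these held depended on the pair of genes chosen. *Cd74* per count of *Ptprc*, which encodes the leukocyte antigen CD45, was 6.04 and 3.08 for control, against 0.961 and 1.08 for *Bmal1* cKO. Per count of *Laptm5*, a lysosomal gene of blood cells, it was 6.48 and 4.06 against 5.88 and 6.09, and per count of *Spi1*, the myeloid and B cell factor PU.1, 28.7 and 10.2 against 24.5 and 29.9, with both genotypes overlapping. Per count of *Tyrobp*, an adaptor of myeloid and NK cells, it was 23.1 and 6.45 against 36.7 and 82.2, but these last ratios rest on 8 and 4 reads of *Tyrobp*. *H2-Aa* was at 1.84 and 0.906 against 0.549 and 0.605 per count of *Ptprc*, but at 1.97 and 1.19 against 3.36 and 3.43 per count of *Laptm5*, higher in both *Bmal1* cKO mice, as were all members but *Cd74* by that measure. Per count of *Spi1*, *H2-Aa* was at 8.72 and 2.99 against 14.0 and 16.8, the latter on 12 and 11 reads of *Spi1*. Per count of *Cd79a* (5 and 5 reads in the *Bmal1* cKO mice) and of *C1qa* (4 and 2 reads), all 7 members were higher in both *Bmal1* cKO mice. The log2 fold change of *Ptprc* was -1.42 and that of *Tyrobp* -5.48. After the GC and length correction these were -2.30 and -4.76, with *Laptm5* at -3.03 and *Spi1* at -2.96. *Cd74* and *H2-Aa* were then at -2.70 and -2.47, nearer to *Ptprc* than before the correction. *Ptprc* is poorer in GC (42.7%) than *Cd74* (56.6%) and *H2-Aa* (51.0%). *Cd74* per count of *Epcam* was 0.436 and 0.105 against 0.0163 and 0.0219. A ratio within a library shows unequal change of a gene pair, and these ratios do not assign class II transcripts to a cell type.

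The gene whose profile over the 4 libraries lay nearest to the mean of the 7 class II profiles, among the 9978 genes averaging 100 normalized counts or more, was *Vwf*, the von Willebrand factor of endothelial cells. It was at 373 and 99.95 normalized counts in control libraries 1 and 2, against 37.0 and 36.5 for *Bmal1* cKO, a root mean square difference of 0.0363 on the log2 scale. *Il2rg*, the common cytokine receptor chain of lymphocytes (0.168), *Cavin3* (0.197), *Tm4sf1* (0.204) and *Pik3cd* (0.204) came next. Of the members, *H2-Aa* was nearest to that mean (0.191) and *Ciita* farthest (0.639), and 171 genes lay as near as *Ciita*. With 4 libraries in 2 groups, this likeness rests on 4 values a gene, high in control mouse 1, low in both *Bmal1* cKO mice and between them in control mouse 2.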

How the data were processed

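Per the labels and the study's methods, the authors aligned reads to GRCm38 with STAR and deposited DESeq2-normalized counts per gene, a signal that divides each read count by its library's factor. Dividing by the value of 1 read gave whole reads for 100% of values (within 0.01). The labels and the methods name different library kits, and strandedness was not given in the sources used here. Columns of the authors' own comparison (mean, fold change, its error, test statistic and p-values) were not used.

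Genes averaging 10 or more normalized counts were tested with limma 3.58.1 (trend, R 4.3.3) on log2(value + 1), two-sided, threshold 0.05 after Benjamini-Hochberg adjustment over all genes. The alternatives were edgeR 4.0.16 and DESeq2 1.42.0 on recovered reads, other pseudocounts, filters and scalings, no trend, a replicate block, each library left out, and a robust loess adjustment (span 0.3), library by library, for the GC content and length of the longest protein-coding transcript (GENCODE M21). Scripts were tested on simulated data. The 2 libraries of a group are 2 mice, which the methods place in the same litter, so p-values measure the spread between these mice only. All 7 members, *Arntl* and the 5 genes nearest in profile were named, and genes of the pathway and marker lists could be. Members and lists were chosen with earlier results of these data known. *March1* and *March8* were found by Ensembl ID, because 20 symbols had been turned into dates. A pair of list genes is not reported here.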

Additional observations from a re-analysis of the deposited data

How the results depend on the processing

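The log2 fold changes of the 7 members kept their sign under every alternative run, and *Cd74* and *H2-DMb1* passed the threshold in all 11 alternatives that kept all libraries. Without limma's trend, *H2-Aa* (-2.58, adjusted p = 0.0551) and *H2-Eb1* (-2.34, adjusted p = 0.105) no longer passed. Under the GC and length correction, *H2-Ab1* (-1.85, adjusted p = 0.0568) and *H2-Eb1* (-2.16, adjusted p = 0.0681) did not pass, and the genes lower and higher came to 2419 and 2405 instead of 3871 and 4059. DESeq2 called *H2-DMa* as well (-2.16, adjusted p = 0.0148). Equal library totals moved the median of all genes to -0.26 and called the same number of members, 5.

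The replicate numbers were shared only as numbers (Pearson -0.09 for the deviations of same-numbered libraries). A fit with the replicate block also called *H2-DMa* (-1.80, adjusted p = 0.0222) and *Ciita* (-1.41, adjusted p = 0.0267). With the GC and length correction as well as the block 3 members passed (*H2-Aa*, *Cd74* and *H2-DMb1*), so the calls of *H2-DMa* and *Ciita* were lost. There *H2-Ab1* stood at -1.85 (adjusted p = 0.0559), *H2-Eb1* at -2.16 (adjusted p = 0.0715), and the genes lower and higher at 2104 and 2085.

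Among the other genes named, with and without the block, the GC and length correction turned the sign of *Nfyb* (-0.0377), *Jak2* (-0.0247), *Jak1* (-0.18), *Socs1* (0.10), *Ctsl* (-0.71), *Ctsd* (0.0447), *Ifi30* (0.0331), *Irf8* (0.35) and *Epcam* (0.29). Equal library totals turned *Jak1* (-0.0355), *Rfxap* (-0.18), *Rfxank* (-0.0859) and *Ctsl* (-0.21), edgeR (-0.00963) and DESeq2 (-0.00120) also *Ctsl*. DESeq2 called 9 of the 12 interferon gamma inducible genes higher, and 7 of the 10 B cell markers and 2 of the 4 remaining class II chains lower. The shares of all tested genes given in the text are from limma and are no background for these DESeq2 counts.

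Leaving out each library in turn gave ranges of -3.47 to -1.69 for *H2-Aa*, -3.70 to -1.87 for *H2-Ab1*, -3.46 to -1.22 for *H2-Eb1*, -4.37 to -2.64 for *Cd74*, -2.87 to -0.72 for *H2-DMa*, -2.97 to -1.75 for *H2-DMb1* and -2.52 to -0.30 for *Ciita*, with 2205 to 2852 genes lower and 2654 to 3154 higher. Sign changes among the other genes came with ranges of -3.33 to 0.25 for *H2-Ob*, -0.40 to 0.0568 for *Rfx5*, -0.13 to 0.22 for *Rfxap*, -0.17 to 0.20 for *Ctsl*, -2.48 to 0.40 for *Ms4a1* and -0.16 to 0.15 for *Epcam*. The cause of these shifts was not tested, except that each such fit has 1 library fewer. With 2 mice a group and 16 to 38 reads a library for H2-DM in *Bmal1* cKO mice, small differences could not be detected.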
